A study of Mus musculus with 11 samples.

Results

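Genes of DNA replication and mitosis were followed in T cells sorted from mouse kidney, as a set of 44 genes of the 46078 in the deposited count table. The set was taken by gene symbol and was split into 26 mitosis members and 18 replication members, which are reported apart. All 44 were found in the table and all 44 passed the filter on low counts, among 16365 genes that could be tested. All mice were wild type (WT), were immunised with recombinant mouse myeloperoxidase (MPO) and were later injected with sheep globulin to mouse basement membrane at low dose, which triggers glomerulonephritis. Kidney cells were sorted 21 days later into CD4+CD127-PD-1+ (n = 2 libraries), CD4+CD127+PD-1- (n = 3), CD8+CD127-PD-1+ (n = 3) and CD8+CD127+PD-1- (n = 3). CD127 is the alpha chain of the IL-7 receptor, and PD-1 is an inhibitory receptor of stimulated T cells. Cells of 3 mice were pooled for each library, and errors therefore describe pools rather than single animals. Per the labels, a CD4+CD127-PD-1+ sample was lost to quality control. No source used here gives the strain, age or sex, and no library from mice without nephritis was analysed here.

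A cell that divides first copies its DNA and then separates the copies. Replication members load and run the copying machinery: the MCM proteins form the helicase that opens DNA, Pcna is the sliding clamp that holds polymerases, and Rrm1, Rrm2 and Tyms make DNA building blocks. Their genes are classic targets of E2F transcription factors. Mitosis members condense and separate chromosomes and peak later in the cycle: Ccnb1, Ccnb2 and Cdk1 form the kinase that starts mitosis, Aurka, Aurkb and Plk1 are mitotic kinases, and kinesins such as Kif11 and Kif23 work on the spindle. Many of these genes carry a cell cycle genes homology region (CHR), a short promoter element bound by the DREAM and MuvB complexes. Resting T cells hold both gene groups low, and antigen-driven division raises them.

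The promoters of both groups were read first, because these 2 elements are what the groups are known to differ in. In RefSeq promoter windows (GRCm38.p6, from 250 bases before to 50 bases after the start), 37 of the 44 members had an entry, and Aurkb, Ccna2, Ccne2, Gins2, Kif20a, Mcm4 and Tpx2 had none. The letters searched on both strands were TTTGAA or TTCGAA for the CHR, TTTCCCGC, TTTGGCGC, TTTCGCGC or TTTGCCGC for the E2F site, and CCAAT for the CCAAT box. Overlapping matches at different starts were counted separately. A CHR was found in 19 of 23 windows of mitosis members (82.6%) and in 3 of 17 windows of replication members (17.6%). It was found in 19.2% of all 32851 windows in the table. An E2F site was found in 7 of 17 windows of replication members (41.2%) and in 1 of 23 of mitosis members (4.35%), against 2.26% of all windows. A CCAAT box was found in 87% of mitosis windows, 70.6% of replication windows and 37.4% of all windows. These are letter matches and not measured binding.

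The next lines show the promoters of Ccnb2 and Cdk1 with CHR letters in capitals and those of Mcm5 and Mcm3 with E2F letters in capitals. Of the members whose window holds the element, these had the smallest p values in the CD8 comparison given further on. Each runs 5′ to 3′ on the strand of the gene, from 250 bases before the start to 30 bases after it.
Ccnb2 (chr9:70421525-70421804, minus strand): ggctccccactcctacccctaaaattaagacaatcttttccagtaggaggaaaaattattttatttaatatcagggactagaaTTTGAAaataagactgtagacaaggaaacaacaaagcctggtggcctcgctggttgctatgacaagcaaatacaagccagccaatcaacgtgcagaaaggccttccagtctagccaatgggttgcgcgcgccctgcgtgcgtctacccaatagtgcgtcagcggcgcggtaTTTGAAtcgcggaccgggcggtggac
Cdk1 (chr10:69352883-69353162, minus strand): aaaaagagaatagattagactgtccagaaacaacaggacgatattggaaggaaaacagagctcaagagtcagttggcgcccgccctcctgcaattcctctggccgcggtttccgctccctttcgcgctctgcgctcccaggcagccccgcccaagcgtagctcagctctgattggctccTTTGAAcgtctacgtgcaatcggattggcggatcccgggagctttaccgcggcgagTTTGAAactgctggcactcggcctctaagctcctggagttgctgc
Mcm5 (chr8:75109259-75109538, plus strand): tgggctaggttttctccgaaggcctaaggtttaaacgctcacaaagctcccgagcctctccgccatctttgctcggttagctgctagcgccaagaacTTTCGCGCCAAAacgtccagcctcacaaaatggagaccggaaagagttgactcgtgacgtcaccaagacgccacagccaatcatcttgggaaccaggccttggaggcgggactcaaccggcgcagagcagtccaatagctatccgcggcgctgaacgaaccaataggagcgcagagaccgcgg
Mcm3 (chr1:20820283-20820562, minus strand): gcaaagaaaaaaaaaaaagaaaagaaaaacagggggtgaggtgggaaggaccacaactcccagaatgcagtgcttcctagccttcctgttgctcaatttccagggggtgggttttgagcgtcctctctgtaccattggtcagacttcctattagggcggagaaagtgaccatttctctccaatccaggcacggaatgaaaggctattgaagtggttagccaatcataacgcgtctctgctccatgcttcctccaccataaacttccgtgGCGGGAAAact

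With position 0 as the start site, the CHR matches of Ccnb2 began at -167 and 4 and those of Cdk1 at -71 and -15. In Mcm5 the 2 E2F matches overlapped, beginning at -153 and -149. In Mcm3 the match shown began at 19, and a further match lay beyond the printed stretch. Each of the 4 windows also held 3 CCAAT boxes. The Cdk1 window was also the 1 of 23 mitosis windows with an E2F match, which is left in lower case above.

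Libraries held between 10.573 M and 16.057 M counts and between 20514 and 21849 detected genes. Il7r, which encodes CD127, measured 13.8 to 27.2 CPM (counts per M counts, with library sizes scaled by TMM) in CD127-PD-1+ libraries and 329 to 455 CPM in CD127+PD-1- libraries. The summed level of 12 pan-T markers ran from 1744 to 2891 CPM over all 11 libraries. Macrophage markers also moved with the sort: 16 of them summed to between 1489 and 3164 CPM in CD127-PD-1+ libraries and to between 131 and 229 CPM in CD127+PD-1- libraries. In each state comparison 15 of these 16 were higher in the CD127-PD-1+ cells, and Lyz2 gave the largest share of the sum, 348 to 993 CPM there. Of the defining macrophage genes Csf1r, Adgre1 and C1qa, none was at 0 in any library, while Mertk was at 0 in 4 of the 6 CD127+PD-1- libraries. Plasmacytoid dendritic cell markers ran the other way, with sums of 107 to 423 CPM in CD127-PD-1+ libraries and 534 to 1428 CPM in CD127+PD-1- libraries. Of the 10 plasmacytoid markers, 7 were lower in CD4 and 5 in CD8 CD127-PD-1+ cells. Of 9 neutrophil markers, 1 was higher in CD4 and 7 in CD8 CD127-PD-1+ cells, with sums of 48.1 to 333 CPM against 3.19 to 24.1 CPM in CD8 cells. Of the markers tested for other cells, 0 of 12 kidney tubule genes were called in either lineage, 2 of 5 endothelial genes were lower in each, and 1 of 6 NK genes was higher in CD8 cells. Of 10 B and plasma cell genes, 1 was lower in CD4 and 3 were higher in CD8 cells, 1 of 12 pan-T genes was lower in each lineage, and the 1 red cell precursor gene tested was not called. Among all tested genes 6.81% were called higher and 4.87% lower in CD4 cells, and 9.05% and 6.56% in CD8 cells. A count of 1 in lists of 6 to 12 genes is near these shares. The part of such cells in the results that follow was not tested. In sorted bulk cells, a larger share of dividing cells and more of these RNAs per cell cannot be told apart.

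Summed over members, mitosis genes were high in CD127-PD-1+ cells and low in 5 of the 6 CD127+PD-1- libraries. The 26 mitosis members summed to 1550 and 2687 CPM in CD4+CD127-PD-1+ and to 578, 676 and 738 CPM in CD4+CD127+PD-1-. In CD8 cells the sums were 2010, 2336 and 2621 CPM for CD127-PD-1+ and 804, 683 and 2080 CPM for CD127+PD-1-. The last of these, CD8+CD127+PD-1- replicate 3, stood apart from the other 2 libraries of its group and lay within the range of the CD127-PD-1+ libraries of both lineages. The sums of the replication genes lay closer together. The 18 members summed to 497 and 838 CPM in CD4+CD127-PD-1+ and to 331, 353 and 406 CPM in CD4+CD127+PD-1-. In CD8 cells they summed to 633, 879 and 832 CPM in CD127-PD-1+ and to 418, 402 and 661 CPM in CD127+PD-1-. Replicate 3 was again the highest of its group. Mitochondrial ribosomal RNA took 35.7%, 40.3% and 40.8% of counts in CD8+CD127-PD-1+ and 31.7%, 28.6% and 31.8% in CD8+CD127+PD-1- libraries, without overlap, and its part in these levels was not tested. In CD4 cells it took 30.8% in both CD127-PD-1+ libraries and 28.1%, 29.2% and 30.8% in CD127+PD-1- libraries.

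**Figure D1:**
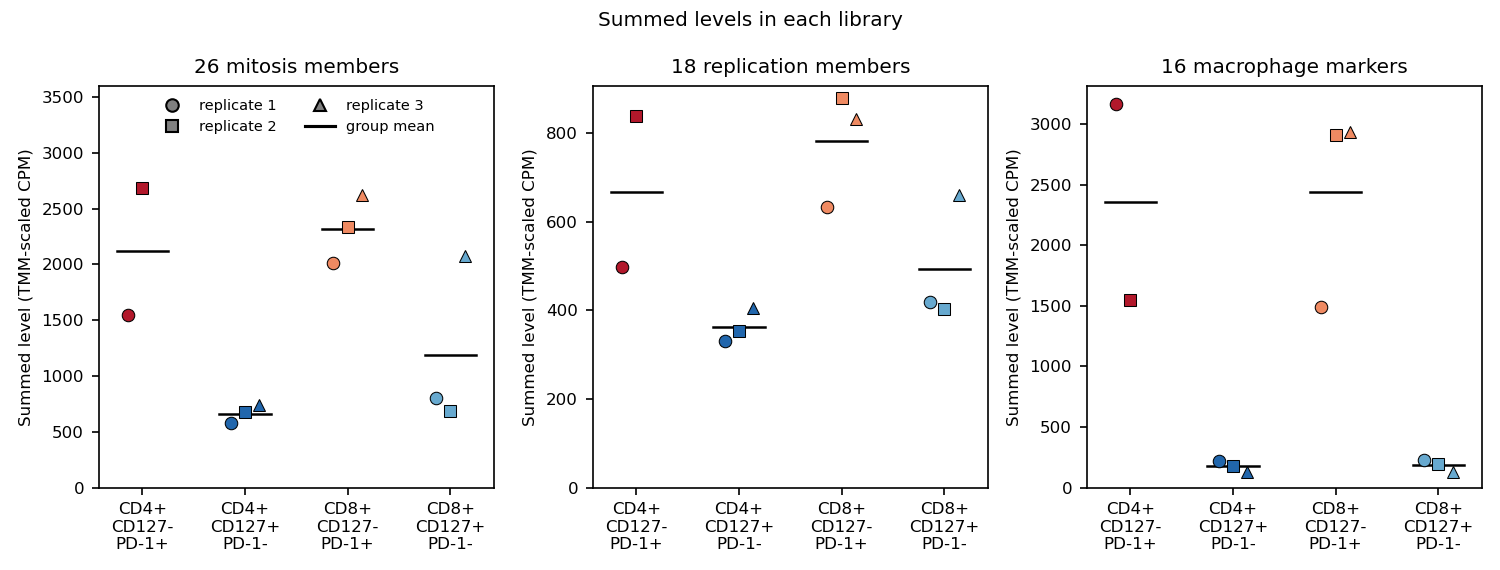
Summed level (CPM) of the 26 mitosis members, the 18 replication members and 16 macrophage markers in each library (points, shape by replicate number) of the 4 sorted groups, with the group mean as a line. CD8+CD127+PD-1- replicate 3 has a mitosis sum of 2080 CPM against 804 and 683 CPM in the other 2 libraries of its group, and its macrophage sum of 132 CPM is the lowest of its group.

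The proliferation marker Mki67 alone made up 33.5% to 43.9% of the mitosis sum. Leaving out Mki67 and Top2a, the ratio of the mitosis sum to the replication sum was 1.37 and 1.33 in CD4+CD127-PD-1+ and 0.896, 0.98 and 0.813 in CD4+CD127+PD-1-. In CD8 cells it was 1.41, 1.14 and 1.35 in CD127-PD-1+ and 0.886, 0.871 and 1.38 in CD127+PD-1-. The ratio was thus over 1 in every CD127-PD-1+ library and in CD8+CD127+PD-1- replicate 3, and under 1 in the other 5 libraries.

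Per length of exons (CPM per kilobase, the scale used for levels between genes), Mki67 led the members in CD127-PD-1+ cells. It stood at 90.3 ± 38 (SD, n = 2) in CD4 and 95.5 ± 14.3 (n = 3) in CD8 cells, followed by Pcna at 50.1 ± 6.72 and 53.7 ± 8.12. Top2a came next at 34.7 ± 12.5 and 39.4 ± 6.41, then Mcm4 at 28.1 ± 8.04 and 32.2 ± 2.91. In CD4 cells each of these 4 lay within its spread of the next, and in CD8 cells only Mki67 stood clear of the next, Pcna. In CD4+CD127+PD-1- cells Pcna led with 37.6 ± 2.19 (n = 3). Mki67 (23.7 ± 4.51), Mcm4 (22.3 ± 3.09) and Cenpa (21.7 ± 0.992) followed, within their spread of each other. In CD8+CD127+PD-1- cells Mki67 (46.5 ± 33.2) and Pcna (43.6 ± 5.57) did not differ beyond their spread. Kif2c, a kinesin that takes microtubules apart, was the lowest member in 3 of the 4 groups, from 0.244 ± 0.126 in CD4+CD127+PD-1- to 1.44 ± 0.799 in CD4+CD127-PD-1+, and the second lowest at 1.5 ± 0.164 in CD8+CD127-PD-1+. Its raw counts ran from 8 to 135, and 8 was the lowest count of any member in a library.

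In CD4 cells, 24 of the 26 mitosis members rose in CD127-PD-1+ against CD127+PD-1- cells and none fell. A member is called higher or lower where the edgeR quasi-likelihood test gives a Benjamini-Hochberg adjusted p under 0.05 over all tested genes. Among all tested genes 6.81% were called higher in this comparison and 4.87% lower. The median log2 fold change of the mitosis members was 2.04, with a range of 0.09 to 2.54, against 0.02 for all tested genes. For 25 of the 26, both CD4+CD127-PD-1+ libraries lay above all 3 CD4+CD127+PD-1- libraries, which held for 21.3% of all tested genes.

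Mki67 (ENSMUSG00000031004, chr7:135689784-135716361, GRCm38), the antigen behind the Ki-67 stain of cycling cells, measured 639 and 1179 CPM in CD4+CD127-PD-1+ and 194, 239 and 284 CPM in CD4+CD127+PD-1- libraries. It rose with a log2 fold change of 1.93 ± 0.44 (SE, adjusted p = 0.0158). Top2a (ENSMUSG00000020914, chr11:98992943-99024189), the topoisomerase that untangles chromosomes, measured 233 and 393 against 87.4, 91.9 and 124 CPM, with a log2 fold change of 1.63 ± 0.41 (adjusted p = 0.0259). For both genes the libraries did not overlap, and CD4+CD127-PD-1+ replicate 2 was well above replicate 1.

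The smallest p values belonged to Ccnb2, Cenpe, Ttk and Kif23. Ccnb2 (ENSMUSG00000032218, chr9:70407692-70421547), the B-type cyclin whose promoter is printed above, measured 15.3 and 30 CPM against 3.23, 5.3 and 4.19 CPM. Its log2 fold change was 2.41 ± 0.39 (adjusted p = 0.00302). Cenpe (ENSMUSG00000045328, chr3:135212537-135273611), a kinetochore motor, measured 65.6 and 110 against 17.5, 22.9 and 17.9 CPM (log2 fold change 2.18 ± 0.39, adjusted p = 0.00547). In both genes even the lower of the CD127-PD-1+ libraries was far above the highest of the CD127+PD-1- libraries. Ttk (ENSMUSG00000038379, chr9:83834689-83872389), a kinase of the spindle checkpoint, measured 9.35 and 19.2 against 1.66, 2.38 and 3.44 CPM (log2 fold change 2.52 ± 0.50, adjusted p = 0.00829). Kif23 (ENSMUSG00000032254, chr9:61915905-61946774), a kinesin of the central spindle, measured 24.8 and 45.9 against 9.78, 12.4 and 12 CPM (log2 fold change 1.63 ± 0.33, adjusted p = 0.00949).

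The other 18 mitosis members that rose did so by log2 fold changes between 1.40 (Kif20a) and 2.54 (Kif2c). They were the cyclins and kinase Ccnb1, Ccna2 and Cdk1, the mitotic kinases Aurka, Aurkb, Plk1, Bub1 and Bub1b, the kinesins Kif11, Kif20a and Kif2c, the anaphase genes Cdc20 and Ube2c, and the spindle and centromere genes Cenpf, Nusap1, Tpx2, Birc5 and Hmmr. Exons of other genes on the opposite strand cover 29.3% of the exon bases of Kif20a and 12.5% of Ccna2, so part of their counts may belong to those genes. For Ube2c the share is 22.8%, but the overlapping gene, Tnnc2, had a mean of 0 CPM. The members not called were Prc1 and Cenpa. Prc1, which bundles spindle microtubules, measured 36.6 and 65.9 against 23, 25.1 and 31.5 CPM without overlap (log2 fold change 0.95 ± 0.34, adjusted p = 0.101). Cenpa, the histone variant that marks centromeres, was flat, at 130 and 139 against 132, 128 and 120 CPM (log2 fold change 0.09 ± 0.11, adjusted p = 0.691).

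Replication members moved the same way in fewer cases: 7 of 18 rose and none fell in CD4 cells. Among all tested genes 6.81% were called higher and 4.87% lower. The median log2 fold change of the replication members was 1.15, with a range of 0.06 to 1.99, against 0.02 for all tested genes. For 13 of 18 the libraries of the 2 groups did not overlap, with the CD127-PD-1+ libraries higher, which held for 21.3% of all tested genes. E2f1 (ENSMUSG00000027490, chr2:154559407-154569892), the activating E2F factor, measured 6.52 and 10.1 against 2.82, 3 and 3.63 CPM (log2 fold change 1.40 ± 0.25, adjusted p = 0.00572). Tyms (ENSMUSG00000025747, chr5:30058202-30073617), which makes thymidylate, measured 29.6 and 50.6 against 10, 12.3 and 14.1 CPM (log2 fold change 1.73 ± 0.36, adjusted p = 0.0102). In both genes the CD127-PD-1+ libraries lay clear above the others. Mcm6 (ENSMUSG00000026355, chr1:128331590-128359664), a helicase subunit, measured 61.8 and 118 against 38, 36.6 and 48.5 CPM (log2 fold change 1.14 ± 0.26, adjusted p = 0.0163).

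Gins2 (ENSMUSG00000031821, chr8:120578633-120589304), a subunit of the GINS complex of the replication fork, measured 8.94 and 15.2 against 2.24, 4.07 and 4.56 CPM (log2 fold change 1.74 ± 0.38, adjusted p = 0.0141). Its value is uncertain, because 67.3% of its exon bases overlap exons of Gse1 on the opposite strand and no source used here gives the strand setting of the counting. Rrm2, Mcm3 and the maintenance methylation factor Uhrf1 rose as well, by log2 fold changes of 1.92, 1.33 and 1.99. Pcna (ENSMUSG00000027342, chr2:132249162-132253314) measured 109 and 132 against 84.4, 94.6 and 91.6 CPM. Its libraries did not overlap, but its log2 fold change of 0.42 ± 0.15 did not pass the test (adjusted p = 0.108). The other members not called were Rrm1, Mcm5, Mcm2, Cdc6, Cdc45, Ccne1, Mcm7, Ccne2, Mcm4 and Cdt1. Of these, the licensing factor Cdt1 had the smallest difference (log2 fold change 0.06 ± 0.22) and Cdc6, which loads the helicase, the widest (1.89 ± 0.64, adjusted p = 0.0821). Exons of Ints8 on the opposite strand cover 17.4% of the exon bases of Ccne2. Ints8 had a mean of 95.9 CPM, so part of the Ccne2 counts may belong to it.

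The group means behind these CD4 counts rest on 5 libraries, but the fit takes its spread from the CD8 libraries as well. With only the CD4 groups in the fit, 23 mitosis and 9 replication members were called. The CD4 comparison was not refitted with CD8+CD127+PD-1- replicate 3 alone left out. Without CD4+CD127-PD-1+ replicate 2, 2 mitosis and 0 replication members were called, without CD4+CD127+PD-1- replicate 1 the counts were 9 and 2, and without its replicate 2 they were 15 and 3. With 1 library left in a group, the fit takes its spread from the other groups.

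In CD8 cells the same direction was seen, but few members passed the test while all libraries were used. Only 3 of 26 mitosis members (Cenpe, Aurkb and Ccnb2) and 4 of 18 replication members (Gins2, Mcm5, Tyms and E2f1) rose, and none fell. Among all tested genes 9.05% were called higher in this comparison and 6.56% lower. The count of 3 of 26 mitosis members is near the share called higher. The median log2 fold change was 0.98 for mitosis members (range 0.17 to 1.34) and 0.76 for replication members (range -0.17 to 1.46), against 0.01 for all tested genes. The libraries of the 2 groups did not overlap for 8 mitosis members and 7 replication members, which held for 18% of all tested genes.

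Cenpe measured 98.8, 110 and 131 CPM in CD8+CD127-PD-1+ and 29, 27.4 and 77.8 CPM in CD8+CD127+PD-1- (log2 fold change 1.34 ± 0.35, adjusted p = 0.0238). Aurkb (ENSMUSG00000020897, chr11:69045647-69051664), the kinase of the chromosomal passenger complex, measured 32.3, 32.3 and 41.4 against 10.4, 9.6 and 26.7 CPM (log2 fold change 1.18 ± 0.34, adjusted p = 0.0346). Ccnb2 measured 23.2, 30.9 and 30.1 against 9.43, 8.8 and 20.5 CPM (log2 fold change 1.12 ± 0.34, adjusted p = 0.0444). In each of these the last value, from CD8+CD127+PD-1- replicate 3, was more than 2 times the other values of its group and still below every CD127-PD-1+ library. Cdk1 (ENSMUSG00000019942, chr10:69335146-69352938) measured 12.9, 16.9 and 15.6 against 5.73, 5.57 and 11.9 CPM, and its log2 fold change of 0.97 ± 0.34 did not pass the test (adjusted p = 0.0743). Mki67 measured 800, 1007 and 1076 against 311, 240 and 851 CPM, so that replicate 3 lay above the lowest CD127-PD-1+ library (log2 fold change 1.04 ± 0.40, adjusted p = 0.102). Top2a measured 318, 326 and 422 against 123, 93 and 315 CPM (log2 fold change 1.01 ± 0.38, adjusted p = 0.0948), with replicate 3 just under the lowest CD127-PD-1+ library.

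Among replication members, Mcm5 (ENSMUSG00000005410, chr8:75109569-75128439), a helicase subunit, measured 24, 38.5 and 34.7 against 11.3, 12.6 and 20 CPM (log2 fold change 1.15 ± 0.31, adjusted p = 0.0278). Tyms measured 35.1, 43.1 and 37.5 against 11.9, 11.2 and 27.7 CPM (log2 fold change 1.19 ± 0.32, adjusted p = 0.0279). Both groups of libraries stayed apart for these genes, with replicate 3 the nearest to the CD127-PD-1+ cells. E2f1 measured 7.52, 10.2 and 10.4 against 5.32, 5.5 and 6.1 CPM (log2 fold change 0.73 ± 0.22, adjusted p = 0.0462). Gins2, with the overlap given above, measured 10.9, 17.5 and 17.1 against 6.06, 3.3 and 7.14 CPM (log2 fold change 1.46 ± 0.34, adjusted p = 0.0141). Mcm6 measured 92.8, 120 and 109 against 60.8, 52.3 and 83 CPM without overlap (log2 fold change 0.71 ± 0.23, adjusted p = 0.0616). Pcna measured 107, 144 and 136 against 90.3, 107 and 117 CPM, with overlap (log2 fold change 0.30 ± 0.14, adjusted p = 0.172). Ccne1, the cyclin of S phase entry, and Cdt1 had log2 fold changes of -0.03 ± 0.29 and -0.17 ± 0.19, the only negative values among the 44 members in either state comparison. Without CD8+CD127+PD-1- replicate 3 the value of Ccne1 was 0.14.

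**Figure D2:**
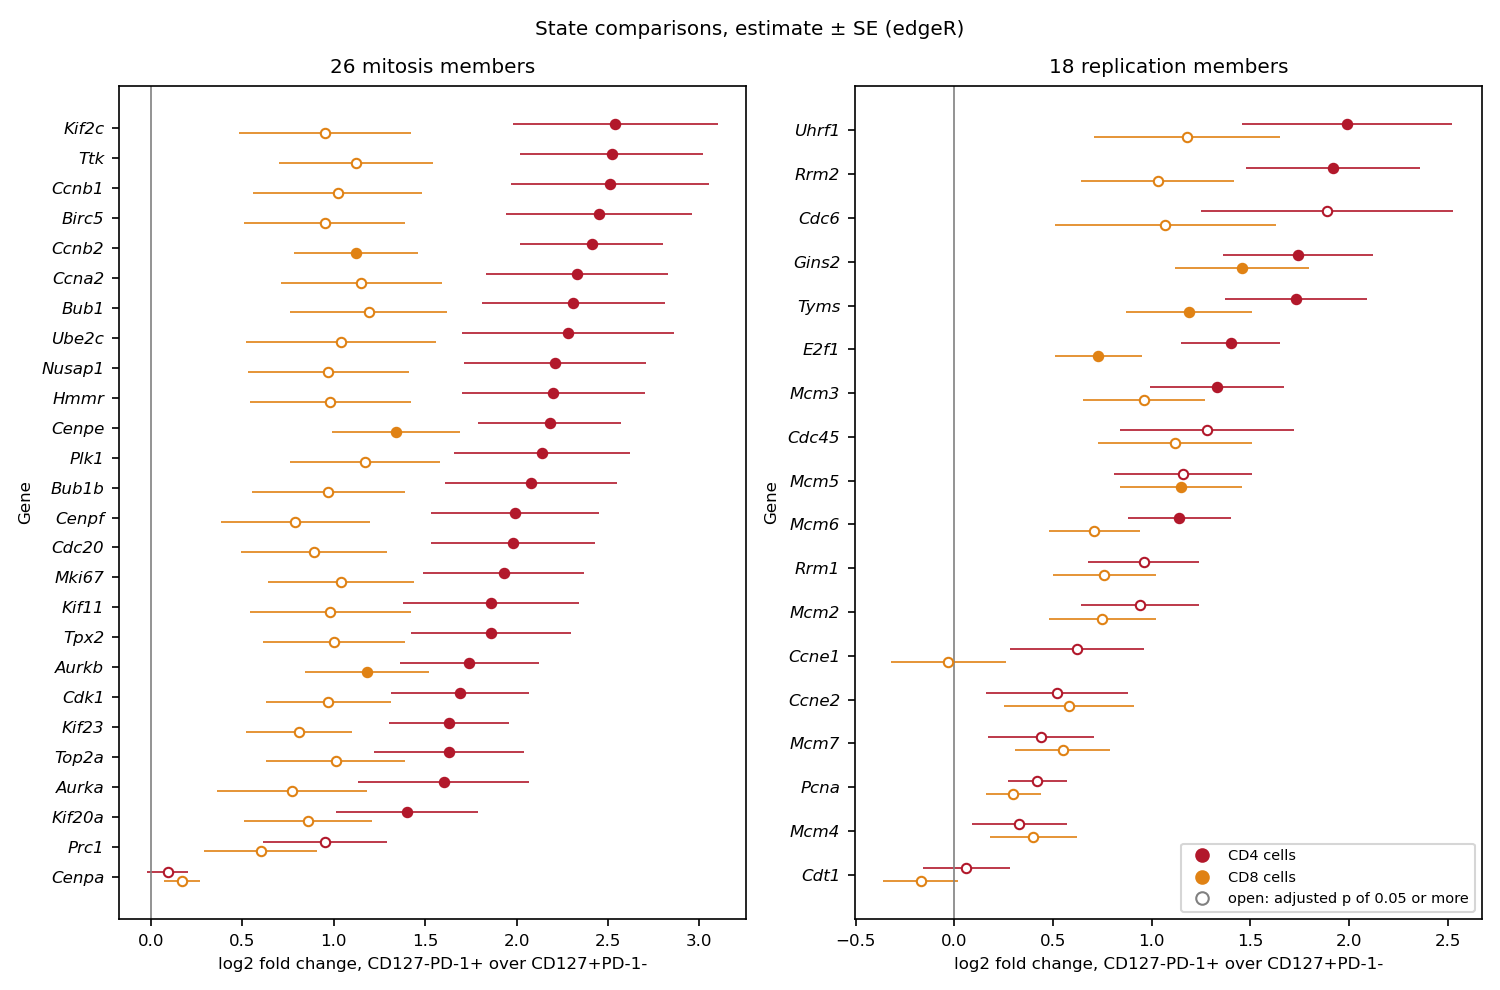
Log2 fold change with its SE (points and bars) of each mitosis and replication member, CD127-PD-1+ over CD127+PD-1-, in CD4 and in CD8 cells, with filled points where the adjusted p is under 0.05. Of the mitosis members 24 are filled in CD4 cells and 3 in CD8 cells, and Cenpa lies near 0 in both.

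Leaving out CD8+CD127+PD-1- replicate 3 changed these counts more than any other single library did. Without it, 24 of 26 mitosis members and 12 of 18 replication members were higher in CD8+CD127-PD-1+ cells, where 9.2% of all tested genes were called higher. The median log2 fold change became 1.76 for mitosis and 1.07 for replication members. The libraries did not overlap for 26 of 26 mitosis and 15 of 18 replication members, which held for 26.1% of all tested genes. Mki67 then had a log2 fold change of 1.80 (adjusted p = 0.00151), Top2a of 1.72 (0.00144) and Cdk1 of 1.42 (0.0122). The mitosis members not called were Aurka (log2 fold change 1.27, adjusted p = 0.0583) and Cenpa (0.24, adjusted p = 0.191). The replication members gained were Cdc45, Cdc6, Mcm2, Mcm3, Mcm4, Mcm6, Rrm1, Rrm2 and Uhrf1, while E2f1 lost its call (log2 fold change 0.80, adjusted p = 0.0655). Replicate 3 stood out through these same members, as the highest of its group for all of them. Leaving it out was therefore bound to raise their fold changes and is no separate support for a rise. The shares over all tested genes are not a like comparison for this choice. This limit holds wherever replicate 3 is left out below.

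Leaving out any of the other 5 CD8 libraries in turn gave 0 or 1 mitosis members. Replication members then numbered 6 without CD8+CD127-PD-1+ replicate 1, 1 without CD8+CD127+PD-1- replicate 1 and 0 without any of the other 3. With all libraries, other tools and settings called more mitosis and replication members, 10 and 11 by DESeq2, 13 and 7 by limma-voom and 17 and 10 with no filter on low counts. With the number in the sample description as a block the counts were 4 and 6, without Aurkb and E2f1.

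**Figure D3:**
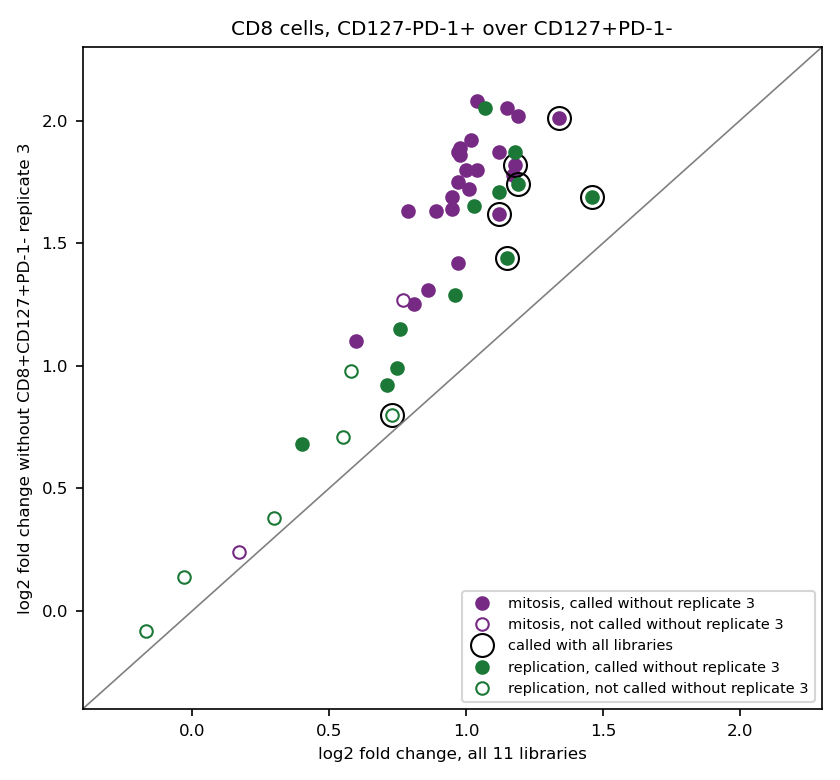
Log2 fold change of each member in CD8 cells with all 11 libraries (horizontal) and without CD8+CD127+PD-1- replicate 3 (vertical), with the line of equal values, filled points for members called without it and rings for members called with all libraries. Points lie above the line, which follows from leaving out the highest library of the group, and the median of the mitosis members moves from 0.98 to 1.76.

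That library was the highest of its group for 26 of 26 mitosis and 18 of 18 replication members, against 36.2% of all tested genes. On the log2 scale of CPM with 0.5 added, it exceeded the mean of replicates 1 and 2 by a median of 1.49 for mitosis members (range 0.18 to 2.01) and 0.71 for replication members (range 0.16 to 1.84), against -0.01 for all tested genes. For 25 of 26 mitosis and 18 of 18 replication members it also lay above every CD4+CD127+PD-1- library, against 30.5% of all tested genes. It lay above the lowest CD8+CD127-PD-1+ library for 18 mitosis members (69.2%) and 11 replication members (61.1%). This is near or under the 68.2% of all tested genes, so it does not set the members apart. Its sort markers matched its label: Il7r measured 329 CPM against 352 and 421 CPM in its group, and Pdcd1, which encodes PD-1, 2.22 against 2.36 and 1.83 CPM. Its macrophage sum of 132 CPM was below the 229 and 195 CPM of the other libraries of its group, and its kidney tubule sum was 15 CPM against 269 and 216. Its NK cell list summed to 725 CPM against 338 and 166, mainly through Gzma at 656 CPM against 282 and 114. Gzma encodes a granzyme that killer T cells also make.

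Libraries differed within the CD127-PD-1+ groups too. CD4+CD127-PD-1+ replicate 2 was above replicate 1 for 44 of 44 members, where 46.9% of all tested genes were, by a median log2 ratio of 0.80 for mitosis and 0.78 for replication members. Its macrophage sum was the lower of the pair, 1548 against 3164 CPM. CD8+CD127-PD-1+ replicate 1 was the lowest of its group for 18 of 18 replication and 21 of 26 mitosis members, against 38.1% of all tested genes. Its macrophage sum was 1489 CPM against 2910 and 2933 CPM. The part of macrophage transcripts in these differences was not tested.

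**Figure D4:**
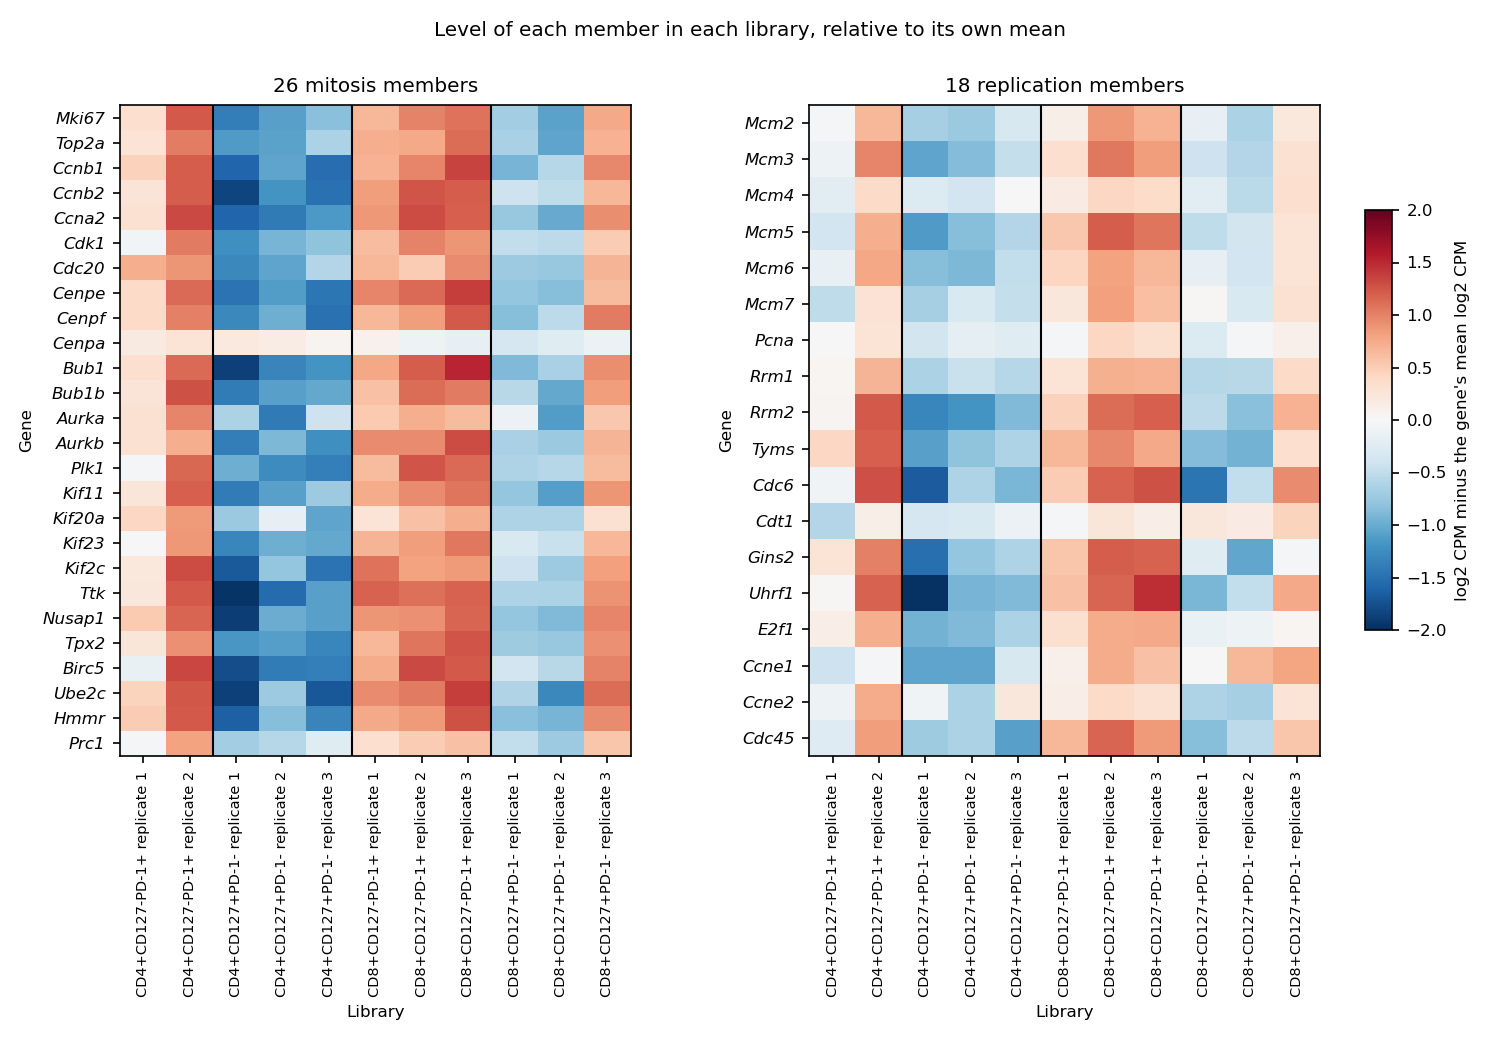
Log2 CPM of each member in each library minus that member's mean over the 11 libraries (colour), with black lines between the 4 sorted groups. Most mitosis rows are red in the CD127-PD-1+ libraries and in CD8+CD127+PD-1- replicate 3 and blue in the other CD127+PD-1- libraries, while Cenpa is close to its mean throughout.

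Between CD4 and CD8 cells of the same state, few members passed the test. In CD127-PD-1+ cells 0 of 44 members were called, by edgeR or by DESeq2, where 2.44% of all tested genes were called in either direction by edgeR. At an unadjusted p under 0.05 there were 3: Cenpa with a log2 fold change of 0.28 (CD4 over CD8), Mcm7 of -0.64 and Ccne1 of -0.75. The median was -0.19 for mitosis and -0.24 for replication members.

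In CD127+PD-1- cells, Ccnb2 and Kif23 among mitosis members and Ccne1 among replication members were lower in CD4 cells, where 1.66% of all tested genes were called lower. At an unadjusted p under 0.05, 21 mitosis and 7 replication members were lower in CD4 cells and 1 mitosis member, Cenpa, was higher. DESeq2 called 14 mitosis and 2 replication members lower in CD4 cells and Cenpa higher. Ccnb2 measured 3.23, 5.3 and 4.19 CPM in CD4 and 9.43, 8.8 and 20.5 CPM in CD8 cells (log2 fold change -1.60 ± 0.37, adjusted p = 0.0291). Kif23 measured 9.78, 12.4 and 12 against 20.3, 18.3 and 40 CPM (log2 fold change -1.20 ± 0.31, adjusted p = 0.049). Ccne1 (ENSMUSG00000002068, chr7:38097984-38107534) measured 3.4, 3.38 and 5.96 against 7.54, 12.3 and 13.4 CPM (log2 fold change -1.39 ± 0.30, adjusted p = 0.0236). The libraries of the 2 groups did not overlap in any of these 3 genes. Without CD8+CD127+PD-1- replicate 3 none of the 44 members was called, with log2 fold changes of -1.10 (adjusted p = 0.0752), -0.76 (0.132) and -1.23 (0.0715) for the same genes. The median of the mitosis members then went from -1.24 to -0.48. Same-numbered libraries of these 2 groups deviated together, and with the title number as a block 5 mitosis and 3 replication members were called lower in CD4 cells. With the number in the sample description as the block the counts were 6 and 6. Leaving out other libraries moved the mitosis count to 0 (CD4 replicate 1 or 3), 1 (CD4 replicate 2), 5 (CD8 replicate 1) or 4 (CD8 replicate 2), and Ccne1 lost its call without CD4 replicate 1 or 2 or CD8 replicate 2.

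The test of the difference between the state changes in CD4 and in CD8 cells called 0 of 44 members, by edgeR and by DESeq2. By edgeR it called 0.00611% of all tested genes. At an unadjusted p under 0.05 there were 2 members, Ccnb2 with a difference of 1.29 ± 0.52 in log2 fold change (CD4 minus CD8) and Birc5 with 1.5 ± 0.67. The median difference was 1.03 for mitosis members and 0.25 for replication members. Without CD8+CD127+PD-1- replicate 3 the medians were 0.30 and 0.01, again with 0 members called. The larger count of mitosis members in CD4 than in CD8 cells is therefore not shown to be a difference between the lineages.

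Other genes of the same machinery were counted from lists that do not share a symbol with the members. Of 40 tested genes of the replication fork and nucleotide supply, 13 rose and 0 fell in CD4 cells and 7 rose and 0 fell in CD8 cells, with medians of 0.67 and 0.50. In CD4 cells the smallest p values were those of Mcm10 (log2 fold change 2.42 ± 0.48), which helps to start the helicase, and Ticrr (1.97 ± 0.41), a factor of origin firing. In CD8 cells they were those of Gins1 (1.66 ± 0.38), another GINS subunit, and Pola1 (0.85 ± 0.20), the primase-linked polymerase. Of 50 tested spindle, kinetochore and condensin genes, 36 rose and 0 fell in CD4 cells, and 6 rose and 1 fell in CD8 cells, with medians of 1.72 and 0.87. The shares over all tested genes were 6.81% higher in CD4 cells, and 9.05% higher and 6.56% lower in CD8 cells. In CD8 cells 6 of 50 is near the share called higher, and 1 of 50 is under the share called lower. Cenpi (1.62 ± 0.29), a gene of the centromere, rose in CD4 cells. In CD8 cells the condensin subunit Smc4 fell by 0.72 on the log2 scale (adjusted p = 0.00169), and the spindle gene Troap rose (1.79 ± 0.44). Without CD8+CD127+PD-1- replicate 3 the CD8 counts became 16 of 40 for the fork genes and 39 higher and 1 lower of 50 for the spindle genes.

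Of 19 regulators of cell cycle transcription, 3 rose in CD4 cells (E2f8, Mybl2 and Foxm1), and in CD8 cells 3 rose (Rb1, E2f8 and Mybl2) and 1 fell (E2f5). Over all tested genes 6.81% were called higher in CD4 and 9.05% in CD8 cells. Mybl2, the MYB factor that joins MuvB to activate mitotic genes, measured 3.29 and 5.52 CPM in CD4+CD127-PD-1+ and 1.08, 0.23 and 0.558 CPM in CD4+CD127+PD-1- libraries (log2 fold change 2.82 ± 0.56, adjusted p = 0.00889). In CD8 cells it measured 4.46, 5.6 and 7.29 against 1.62, 0.953 and 2.91 CPM (log2 fold change 1.65 ± 0.46, adjusted p = 0.032). Foxm1, the forkhead activator of mitotic genes, measured 16.7 and 39.3 against 7.38, 8.6 and 7.72 CPM in CD4 cells (log2 fold change 1.82 ± 0.52, adjusted p = 0.0435). In CD8 cells Foxm1 measured 23.7, 37.6 and 33.6 against 10.2, 10.4 and 37.9 CPM, so that replicate 3 of CD127+PD-1- was the highest CD8 library, and the gene was not called (log2 fold change 0.69 ± 0.46, adjusted p = 0.355). Without that replicate its log2 fold change was 1.61 (adjusted p = 0.00754). E2f8, a repressor of the E2F family that is itself an E2F target, rose in both lineages (2.46 ± 0.43 and 1.36 ± 0.38). In CD8 cells Rb1, the retinoblastoma protein, rose (0.60 ± 0.13, adjusted p = 0.00783) and E2f5, a repressor, fell by 0.76 on the log2 scale (adjusted p = 0.0112), a count of 1 of 19 against 6.56% of all tested genes. Myc, a driver of cell growth, measured 65.3 and 40.4 against 43.3, 48 and 42.5 CPM in CD4 cells and 66.9, 84.8 and 107 against 107, 109 and 121 CPM in CD8 cells and was not called in either (log2 fold changes 0.24 ± 0.21 and -0.38 ± 0.19).

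Of 14 tested cyclins, kinases and phosphatases, most of them of G1, 2 rose in CD4 cells (Skp2 and Cdc25c), and in CD8 cells 2 rose (Skp2 and Cdk6) and 1 fell (Ccnd2). Among all tested genes 6.81% were called higher in CD4 cells, and 9.05% higher and 6.56% lower in CD8 cells. In CD8 cells the 1 of 14 that fell is near that share, and the 2 that rose are little above theirs. Skp2, the ligase subunit that targets the inhibitor p27, had log2 fold changes of 0.85 ± 0.22 and 0.80 ± 0.20 in CD4 and CD8 cells. Cdc25c, the phosphatase that switches on Cdk1 at the entry to mitosis, rose in CD4 cells (2.51 ± 0.65). Ccnd2, a D-type cyclin of lymphocytes, measured 156, 146 and 145 CPM in CD8+CD127-PD-1+ against 189, 199 and 220 CPM, without overlap, and fell by 0.45 on the log2 scale (adjusted p = 0.01). In CD4 cells Ccnd2 measured 311 and 270 against 217, 242 and 220 CPM, also without overlap but in the other direction, and was not called (log2 fold change 0.36 ± 0.11, adjusted p = 0.0532). Ccnd3 was not called in either lineage (-0.24 ± 0.21 and -0.49 ± 0.19). The kinase Cdk6, partner of the D-type cyclins, rose in CD8 cells (0.88 ± 0.24, adjusted p = 0.0292). Of 14 checkpoint and damage genes, 3 rose in CD4 cells, led by Brca2 (1.04 ± 0.20) and Brca1 (1.79 ± 0.40), and in CD8 cells Brca2 rose (0.59 ± 0.18) and Atm fell by 0.39 on the log2 scale. In CD8 cells 1 of 14 in each direction is near the 9.05% higher and 6.56% lower over all tested genes. Without CD8+CD127+PD-1- replicate 3, the CD8 counts called higher became 5 of 14 for the cyclins, kinases and phosphatases, 4 of 14 for the checkpoint genes and 5 of 19 for the regulators of transcription.

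Of 19 tested inhibitors of division, 7 fell and 1 rose in CD4 cells, with 11 not called, and 6 fell and 1 rose in CD8 cells, with 12 not called. Among all tested genes 4.87% were called lower in CD4 and 6.56% in CD8 cells. The medians were -0.20 and -0.14. Klf2, a factor of resting T cells, measured 61.4 and 44.3 CPM in CD4+CD127-PD-1+ against 120, 168 and 112 CPM, and 69.9, 79.2 and 89.4 against 247, 230 and 154 CPM in CD8 cells. It fell by 1.34 (adjusted p = 0.00558) and by 1.40 (adjusted p = 0.00111) on the log2 scale. Foxo1, which drives Klf2 and Il7r, fell by 0.80 and 0.60, and the antiproliferative gene Tob1 fell by 0.84 and 0.95. Cdkn1b, which encodes p27, measured 157 and 143 against 214, 257 and 206 CPM in CD4 cells, without overlap, and fell by 0.59 (adjusted p = 0.0254). In CD8 cells it measured 143, 136 and 114 against 151, 190 and 152 CPM and was not called (log2 fold change -0.32 ± 0.13, adjusted p = 0.121). The other inhibitors that fell were Btg1, Btg2 and Foxp1 in CD4 cells and Cdkn2d, Foxp1 and Trp53inp1 in CD8 cells.

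In each lineage 1 of the 19 inhibitors rose, Cdkn2c in CD4 and Cdkn1a in CD8 cells. A count of 1 of 19 is near the 6.81% (CD4) and 9.05% (CD8) of all tested genes called higher. The test of the difference between the state changes called none of the 19. Cdkn1a, which encodes p21, measured 42.1, 90.7 and 120 CPM in CD8+CD127-PD-1+ against 22.6, 17.4 and 27.5 CPM and rose (log2 fold change 1.91 ± 0.35, adjusted p = 0.00375). In CD4 cells it measured 73.1 and 114 against 46, 36.4 and 62.3 CPM and was not called (0.96 ± 0.37, adjusted p = 0.125). The macrophage sums of the same libraries were 1489, 2910 and 2933 CPM in CD8+CD127-PD-1+ and 3164 and 1548 CPM in CD4+CD127-PD-1+. The part of macrophage transcripts in the Cdkn1a level was not tested. Cdkn2c, which encodes p18 and is an E2F target, measured 16.4 and 14.7 against 6.3, 6.53 and 7.63 CPM in CD4 cells and rose (1.19 ± 0.22, adjusted p = 0.00625). Cdkn2a was below the filter, with at most 6 counts in a library, and was not tested. Without CD8+CD127+PD-1- replicate 3, 5 inhibitors fell and 2 rose in CD8 cells, with Cdkn2c added to those that rose (0.77, adjusted p = 0.0301).

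**Figure D5:**
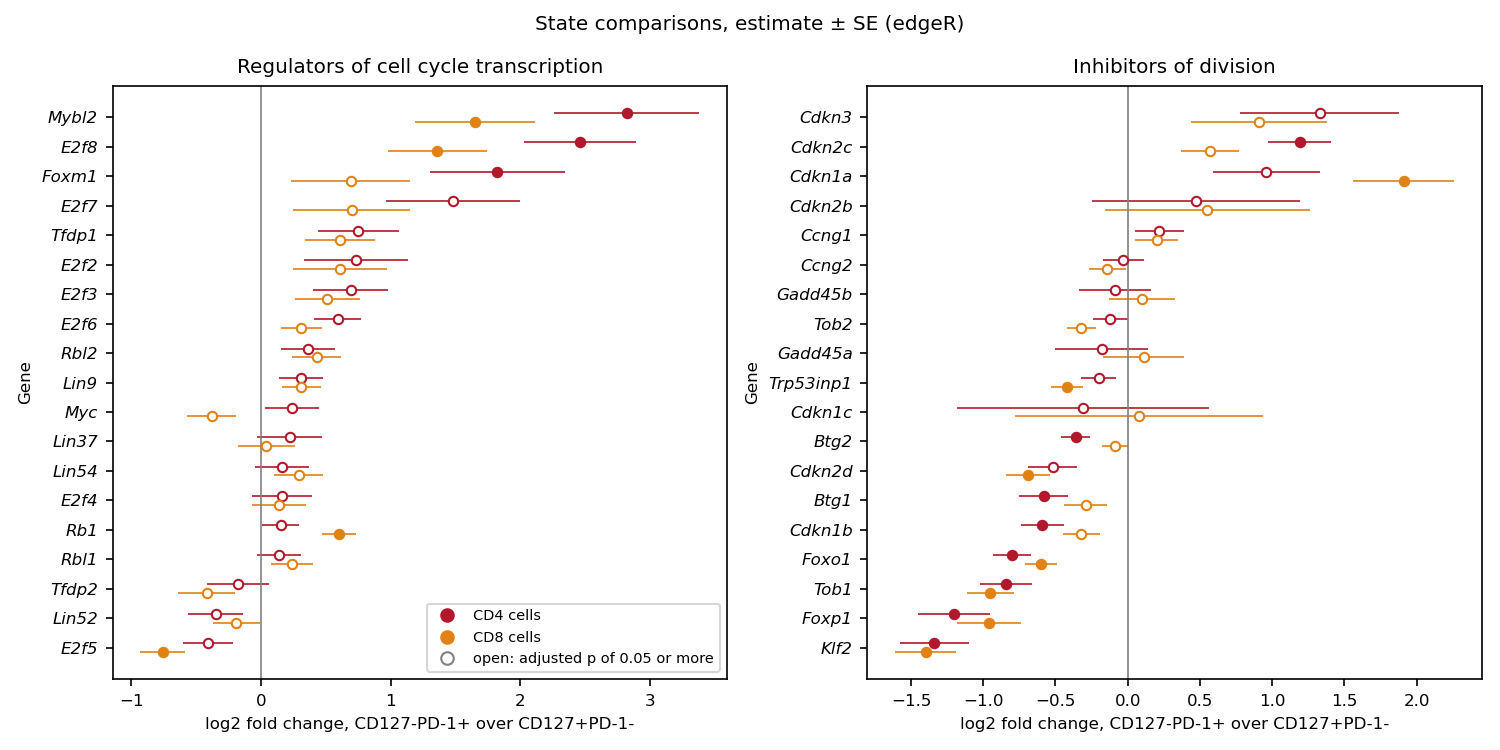
Log2 fold change with its SE of regulators of cell cycle transcription (left) and inhibitors of division (right), CD127-PD-1+ over CD127+PD-1-, in CD4 and in CD8 cells, with filled points where the adjusted p is under 0.05. Mybl2 and E2f8 are filled on the right of 0 in both lineages, and Klf2, Foxp1, Tob1 and Foxo1 are filled on the left of 0 in both.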

How the data were processed

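RNA of sorted kidney T cells was sequenced in 11 libraries (2 ng RNA, single primer isothermal amplification, 75-base single reads, per the labels' protocols). The deposited table holds raw read counts per gene. Per the submitters' processing notes the authors used STAR, featureCounts and build GRCm38; no source used here gives versions, the annotation or the strand setting. A column that matches no label (1 in all) was left out, and no row lacked a gene name. The counts were analysed as deposited in R 4.3.3 with edgeR 4.0.16: filterByExpr, trimmed mean of M values (TMM) scaling, a quasi-likelihood fit of 4 group means to all 11 libraries, and Benjamini-Hochberg adjustment over 16365 genes at 0.05. Fold changes come from that fit, and the SE of each is its size over the root of F. CPM use TMM-scaled library sizes, and gene positions and exon lengths come from GENCODE M21 (GRCm38). The common biological coefficient of variation was 0.244. No 2 libraries of a group agreed within sampling noise (chi-square per gene 12.1 to 31.18). The script was tested on simulated data.

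Each library is a pool of mice, and the labels do not say whether groups share mice, so p-values measure the spread between these libraries. Totals of 10.573 to 16.057 M counts left a lowest member count of 8. Replicate numbers in titles and in descriptions differ. Deviations from group means correlated at 0.208, 0.147 and 0.318 for the 3 same-numbered pairs of the CD127+PD-1- groups, so a block is given beside that comparison. For every other comparison some title pairs stayed under 0.1, and description numbers gave fewer than 3 pairs. Alternatives were DESeq2 1.42.0, limma 3.58.1 (voom), size factors, no filter, only the groups compared, both blocks and leaving out each library.

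The members and lists were chosen with earlier results of these data known. Of 294 list symbols 292 were found, and the 2 missing are older or newer names of genes found. Named in full were Mki67, Top2a and Pcna, the 4 members per class with the smallest p in each state comparison, and called members of the lineage comparisons. From each pathway list the 2 called genes with the smallest p were named, except for a gene that is not reported here, with Cdkn1a, Cdkn1b, Cdkn2a, Myc, Ccnd2, Ccnd3, Foxm1 and Mybl2 always given. Other called genes of the inhibitor list named beyond this rule were chosen after their values were seen.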

Additional observations from a re-analysis of the deposited data

How the results depend on the processing

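No member changed direction in a comparison for which it was named, under the alternatives run, although some values that were not called did, such as Ccne1 in the CD8 state, which went from -0.03 to 0.14 without CD8+CD127+PD-1- replicate 3. In the CD4 state comparison the 24 mitosis members stayed within 1.5 times under every alternative that kept all libraries, while the 7 replication members became 12 with no low-count filter, 12 by DESeq2 and 12 with the title number as a replicate block. In the CD8 state comparison the 3 mitosis members became 17 with no filter, 10 by DESeq2, 13 by limma-voom and 16 with the title block, and the 4 replication members became 10, 11, 7 and 10. With the description block they were 4 and 6, and Aurkb and E2f1 lost their calls. Among CD127+PD-1- cells the 2 mitosis members lower in CD4 became 20 with no filter, 14 by DESeq2 (which also called Cenpa higher), 0 by limma-voom, 5 with the title block and 6 with the description block, and the 1 replication member became 4 with no filter, 2 by DESeq2, 3 with the title block and 6 with the description block. The cause of these moves was not tested. Leaving out 1 library at a time gave 2 to 21 mitosis and 0 to 10 replication members in the CD4 state, 0 to 24 and 0 to 12 in the CD8 state, and 0 to 5 and 0 to 1 among CD127+PD-1- cells, where fewer samples entered each fit. Of the values of single named members under alternatives, 236 kept their side of the threshold, 64 lost their call and 14 gained one. In the CD8 state comparison libraries of the same title number correlated at 0.113, -0.052 and -0.157, so these numbers did not pair the samples, while the 2 pairs of the same description number correlated at 0.113 and 0.159, too few pairs to decide. CD4+CD127-PD-1+ shares at most 2 numbers with any group. Size factors in place of TMM changed 1 call of a member, adding Rrm1 in the CD4 state comparison. The effect of depth on members at a few CPM was not tested.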
